A study of Mus musculus with 6 samples.

Results

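The 38 genes described here were chosen by name as genes of peroxisome assembly and of peroxisomal enzymes and membrane proteins, out of 14148 genes in the expression table. All 38 were found in the table, and all 38 passed the filter on low values. Peroxisomes are small organelles that shorten very long and branched fatty acids, start the synthesis of ether lipids and break down the hydrogen peroxide that their oxidases release. Their enzymes are made in the cytosol and imported by peroxins, the products of the Pex genes. Most enzymes carry a signal at their C-terminus that the receptor Pex5 reads, and a few carry an N-terminal signal read by Pex7.

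The RNA came from hippocampal microglia, the resident macrophages of the brain, of male C57BL/6 mice aged 18 months. Cells positive for CD11b with low CD45 were sorted by BODIPY, a dye for neutral lipids, into lipid droplet-low (LD-low) and lipid droplet-rich (LD-high) cells. Each group had 3 libraries, and each library pooled the hippocampi of 3 mice and about 10000 sorted cells. No genetic change or drug is named for either group, and both come from aged mice, so age was not compared. Nothing in the labels says whether the pools hold different mice. So p-values reflect the spread of these samples alone, and that spread could be technical.

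Values are normalized counts, that is, reads per gene divided by a size factor for each library. Libraries held between 15895576 and 38489448 reads in genes. All 9 microglial markers were present, and their summed level lay between 1515100 and 1769290 normalized counts in LD-low and between 1482120 and 1693490 in LD-high libraries. Of 8 neutrophil markers, 6 were in the table, their sum lay between 1154 and 4297 in LD-low libraries, and all 6 had 0 reads in every LD-high library; all 5 that were tested fell. All 9 choroid plexus epithelium markers were present, with sums between 367 and 1795 in LD-low and between 1707 and 5565 in LD-high libraries. Of the 5 tested, 3 rose in limma (Ttr, Kl and Enpp2). Each of these calls was lost without LD-low replicate 2, LD-high replicate 1 or LD-high replicate 3 (adjusted p 0.0547 to 0.105), and DESeq2 did not call Ttr (0.179) or Enpp2 (0.0791).

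Other marker lists had 0 genes past the threshold in limma. The 7 oligodendrocyte markers summed to between 4648 and 4896 in LD-low and between 5453 and 6013 in LD-high libraries. Most of that sum was Cnp (mean 2909 in LD-low against 3483 in LD-high), Mbp (1090.4 against 1264) and Mag (676 against 867), each at an unadjusted p under 0.05, and DESeq2 called Cnp and Mag higher (0.0195 and 0.0302). Mog and Mal went the other way at low levels (9.13 against 2.72 and 2.87 against 0.373). The 7 astrocyte markers summed to between 6500.1 and 7854 in LD-low and between 7999 and 8878 in LD-high libraries. Nearly all of it was Slc1a3 (7183 against 8463, unadjusted p 0.00786), while Gfap (14.4 against 5.27), Aldh1l1 (43.2 against 32.3), Slc1a2 (6.27 against 4.83) and Aqp4 (3.30 against 0 reads in every LD-high library) were lower in LD-high. The 4 neuronal markers present summed to between 37.9 and 67.8 in LD-low and between 80.4 and 98.5 in LD-high libraries. Of 8 border-associated macrophage markers, 7 were tested and all had changes below 0, with sums between 254 and 557 in LD-low and between 167 and 416 in LD-high libraries. Folr2 and Cbr2 lay wholly below (unadjusted p 0.0117 and 0.0210). The 4 endothelial markers present summed to between 1363 and 1789 in LD-low and between 1640 and 2082 in LD-high libraries. Among them Kdr lay wholly higher in LD-high (310.1 against 405.5) and Flt1 wholly lower (21.8 against 2.86), which edgeR and DESeq2 called (0.0395 and 0.0248).

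Of the 38 genes, 4 rose in LD-high microglia, 0 fell and 34 did not pass the test. The 4 were Cat, which encodes catalase, the beta-oxidation genes Hsd17b4 and Scp2, and the import receptor gene Pex7. Their mean levels were 34.8%, 32.2%, 23.3% and 39.4% higher in LD-high than in LD-low libraries. Across all 11624 genes tested with limma, 1.53% rose and 1.82% fell at an adjusted p under 0.05, against 10.5% and 0% of these 38. At an unadjusted p under 0.05 in either direction there were 8 of the 38, near the share over all genes tested (2298 of 11624). All 8 were higher, and that share does not count higher genes alone, so it is no measure for their direction. The median log2 change (LD-high minus LD-low, on log2 of the normalized count plus 1) was 0.08 over the 38 genes and -0.01 over all genes tested. Of the 38 changes, 27 (71.1%) lay above 0, against 48.7% of all genes tested. The 3 LD-high values lay wholly above the 3 LD-low values for 13 of the 38 genes (34.2%), against 12.7% of all genes tested. They lay wholly below for 1 of the 38, against 11.7% of all genes tested. Count tests on the recovered reads gave the same 4 genes: edgeR called 4 of the 38 where it called 1.44% of all genes higher, and DESeq2 called 4 where it called 3.12% higher. Whether the differences in these marker lists between the groups play a part in these results was not tested. In bulk RNA of this kind, more cells that express a gene and more RNA per cell cannot be told apart.

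**Figure D1:**
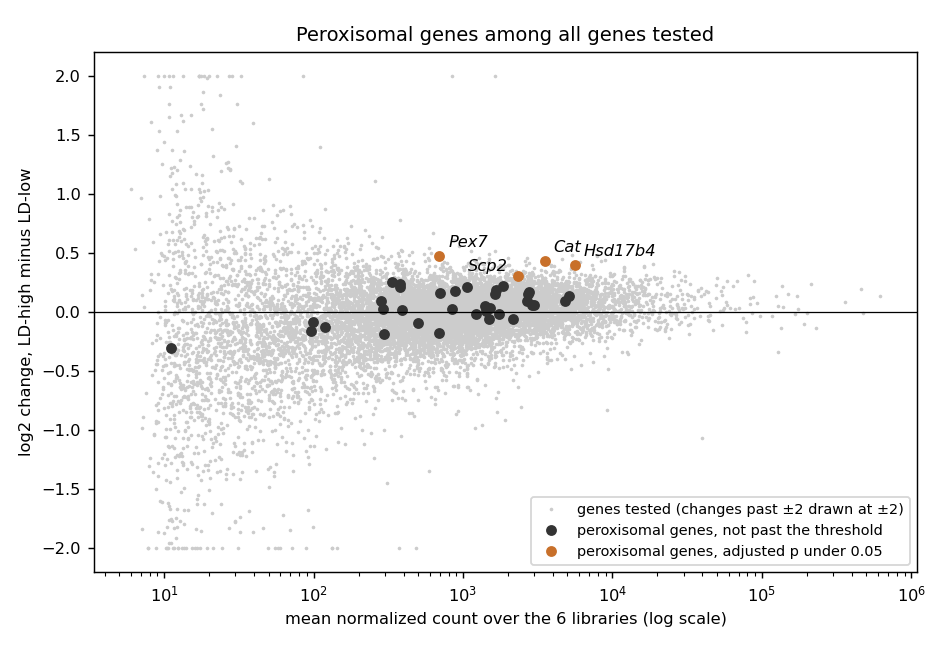
Log2 change (LD-high minus LD-low, vertical axis) against the mean normalized count over the 6 libraries (horizontal axis, log scale) for all genes tested (grey) and the 38 peroxisomal genes (black, or orange where the adjusted p was under 0.05). The 4 orange genes have changes between 0.30 and 0.47, and the lowest black point is Pxmp2 at a mean of 11.1 normalized counts.

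Catalase turns hydrogen peroxide into water and oxygen inside peroxisomes. Cat (ENSMUSG00000027187.4, mm9 chromosome 2, 103294006 to 103325317, minus strand) had 3071, 3089.7 and 2824 normalized counts in the LD-low libraries against 4117, 3868 and 4126 in the LD-high libraries. The lowest LD-high library lay well above the highest LD-low library. The log2 change was 0.43 ± 0.07 (SE), with a limma adjusted p of 0.00566. Each of the 6 fits without 1 library called it, the least clearly without LD-low replicate 3 (adjusted p 0.0382). Cat was singled out in the publication on these cells, so its direction is not independent evidence.

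Hsd17b4 (ENSMUSG00000024507.6) encodes the D-bifunctional protein, which hydrates and oxidizes the enoyl-CoA intermediates of very long and branched chains. Its values were 4992, 4806 and 4651 in LD-low against 6964, 6175 and 5959 in LD-high libraries. All LD-high values were higher, with the highest in replicate 1. The log2 change was 0.40 ± 0.07 (SE, limma adjusted p 0.0125), and the call was lost in 2 of the 6 fits, without LD-low replicate 2 (0.0522) and without LD-low replicate 3 (0.0690).

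Scp2 (ENSMUSG00000028603.9, chromosome 4, 107716444 to 107817603, minus strand) encodes both a sterol carrier protein and a longer peroxisomal thiolase that cleaves branched chains. Counts per gene do not separate these products. It had 2104, 2155 and 2053 normalized counts in LD-low against 2620.3, 2550.0 and 2611 in LD-high libraries, the tightest groups of the 4 genes. The log2 change was 0.30 ± 0.07 (SE, limma adjusted p 0.0308). The call was lost in all 6 fits without 1 library, with adjusted p-values from 0.0501 without LD-low replicate 1 to 0.119 without LD-low replicate 3.

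Pex7 (ENSMUSG00000020003.9, chromosome 10, 19579735 to 19627495, minus strand) encodes the receptor for enzymes with the N-terminal signal. Its values were 571, 613 and 558 in LD-low against 688, 913 and 828 in LD-high libraries. LD-high replicate 1 was the closest to the LD-low libraries. The log2 change was 0.47 ± 0.11 (SE, limma adjusted p 0.0370). The call was kept without LD-high replicate 1 (0.0163) and lost in the other 5 fits, reaching 0.145 without LD-low replicate 3. With every library scaled to the same total, Scp2 and Pex7 were not called (0.0591 and 0.0789), with quantile normalization Scp2 was not (0.0547), and without a mean-variance trend none of the 4 was called (0.144 to 0.196). Exons of these 4 genes overlap no other annotated gene, while 12 of the 38 share some exon sequence with a neighbour.

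**Figure D2:**
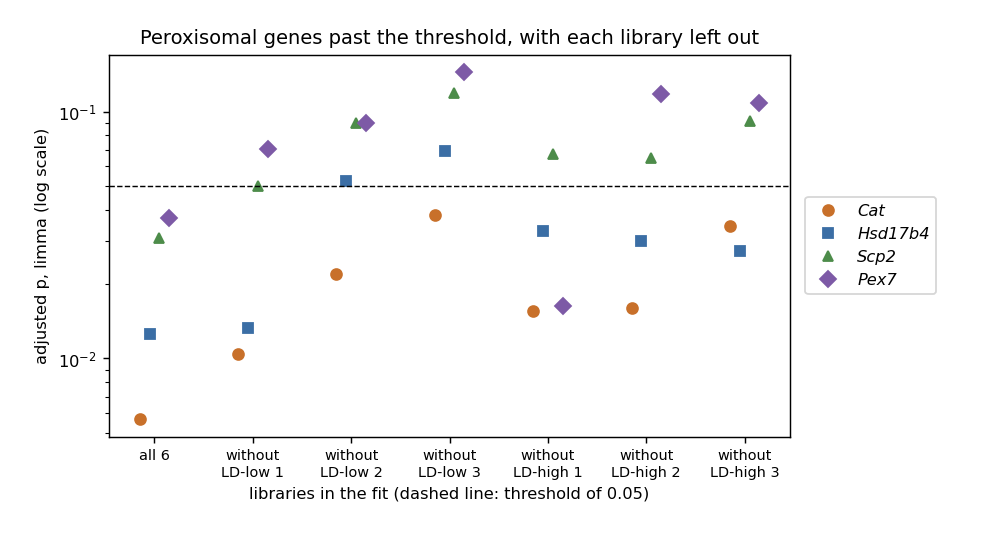
Limma adjusted p (vertical axis, log scale) of the 4 genes that rose, with all 6 libraries and with each library left out (horizontal axis). The dashed line is the threshold of 0.05: Cat stays below it throughout, and Scp2 is above it in all 6 fits without a library.

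The factors best known for switching on peroxisomal genes, the PPAR and RXR nuclear receptors, bind AGGTCA repeats. Whether they act on these 4 genes was not tested. For that motif, the start regions of 3 of the 4 genes, which each passed the threshold, are shown. Each is the 250 bases before the RefSeq start site, 5′ to 3′ on the gene's strand, in build GRCm38.p6. Capitals mark the hexamer AGGTCA, the GC box GGGCGG and the CCAAT box on either strand, none of which overlap here.
Cat, chr2:103485154-103485403, minus strand: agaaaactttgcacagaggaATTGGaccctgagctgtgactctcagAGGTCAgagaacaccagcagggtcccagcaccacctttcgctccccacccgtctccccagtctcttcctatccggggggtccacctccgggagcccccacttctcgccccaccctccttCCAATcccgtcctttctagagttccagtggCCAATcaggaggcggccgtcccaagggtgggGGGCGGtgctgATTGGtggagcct
Scp2, chr4:108118548-108118797, minus strand: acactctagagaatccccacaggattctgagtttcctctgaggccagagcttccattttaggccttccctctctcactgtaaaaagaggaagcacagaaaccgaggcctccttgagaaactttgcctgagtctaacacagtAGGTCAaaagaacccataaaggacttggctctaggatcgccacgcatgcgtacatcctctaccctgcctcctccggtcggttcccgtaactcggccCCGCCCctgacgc
Pex7, chr10:19907675-19907924, minus strand: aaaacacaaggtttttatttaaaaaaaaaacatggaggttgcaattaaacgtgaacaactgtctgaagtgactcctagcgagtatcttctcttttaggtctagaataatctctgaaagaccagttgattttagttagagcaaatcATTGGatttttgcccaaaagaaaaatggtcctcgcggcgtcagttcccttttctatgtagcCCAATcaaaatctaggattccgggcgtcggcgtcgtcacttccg

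The 3 regions differ in make-up. GC content was 62.0% for Cat, 53.6% for Scp2 and 40.0% for Pex7, against a median of 52.4% over 32851 RefSeq start regions of the same length, which include non-coding genes. AGGTCA occurred 1 time each in Cat and Scp2 and 0 times in Pex7. Of the 38 genes, 32 had a start region in the table. AGGTCA was found in 3 of these 32 (9.38%; Cat, Scp2 and Pex11g) and in 14.0% of all regions. The direct repeat of AGGTCA with any 1 base between its copies was found in 0 of 32 and in 0.0335% of all regions. GGGCGG was found in 23 of 32 (71.9%) and 32.7% of all regions, and CCAAT in 14 of 32 (43.8%) and 33.8%. The E-box CACGTG was found in 2 of 32 (6.25%) and 6.02%, and TGACNNNGC, the core of the antioxidant response element, in 4 of 32 (12.5%) and 10.2%. Both strands were searched, and a match describes letters only.

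Apart from Pex7, the import and assembly genes did not pass the test. There were 11 such peroxins, of which 1 rose; the median log2 change of the 11 was 0.01, and 10 missed the threshold. Pex19, which carries membrane proteins to the peroxisome, had 1669, 1526 and 1489 normalized counts in LD-low against 1873, 1772 and 1695 in LD-high libraries. Its groups did not overlap, but the log2 change of 0.19 ± 0.08 (SE) had a limma adjusted p of 0.205. Pex10, part of the ubiquitin ligase that recycles the import receptors, had 281, 287 and 379.9 in LD-low against 265, 269.9 and 292 in LD-high libraries. LD-low replicate 3 stood above the other 5 libraries, and the log2 change was -0.18 ± 0.15 (adjusted p 0.525).

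The receptor Pex5, which serves most matrix enzymes, averaged 1526 ± 95.5 normalized counts in LD-low against 1463 ± 110.2 in LD-high samples (SD, n = 3 a group). Its log2 change was -0.06, with a 95% interval from -0.24 to 0.12. The docking proteins Pex13 and Pex14 had changes of -0.02 and 0.01, with intervals from -0.20 to 0.16 and from -0.16 to 0.18. These intervals leave out changes as large as that of Cat. Exons of Pex14 overlap those of Gm17029 on the other strand over 28.3% of their length, and libraries of this kind do not separate strands.

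The export motor subunit Pex6 and its anchor Pex26 had log2 changes of -0.06 and 0.01. The ligase subunit Pex2 had 0.06, and the membrane assembly factors Pex3 and Pex16 had 0.02 and -0.09. The signs of several of these near-0 values turned under other settings. The growth and division genes Pex11a and Pex11g were low. Pex11a had 109, 133 and 131 normalized counts in LD-low against 105, 139 and 100.2 in LD-high libraries. Pex11g had 107, 80.1 and 113 in LD-low against 79.7, 67.2 and 129 in LD-high libraries. Both overlapped between groups, and with log2 changes of -0.12 ± 0.21 and -0.16 ± 0.26 (SE) they were measured less precisely than the peroxins.

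**Figure D3:**
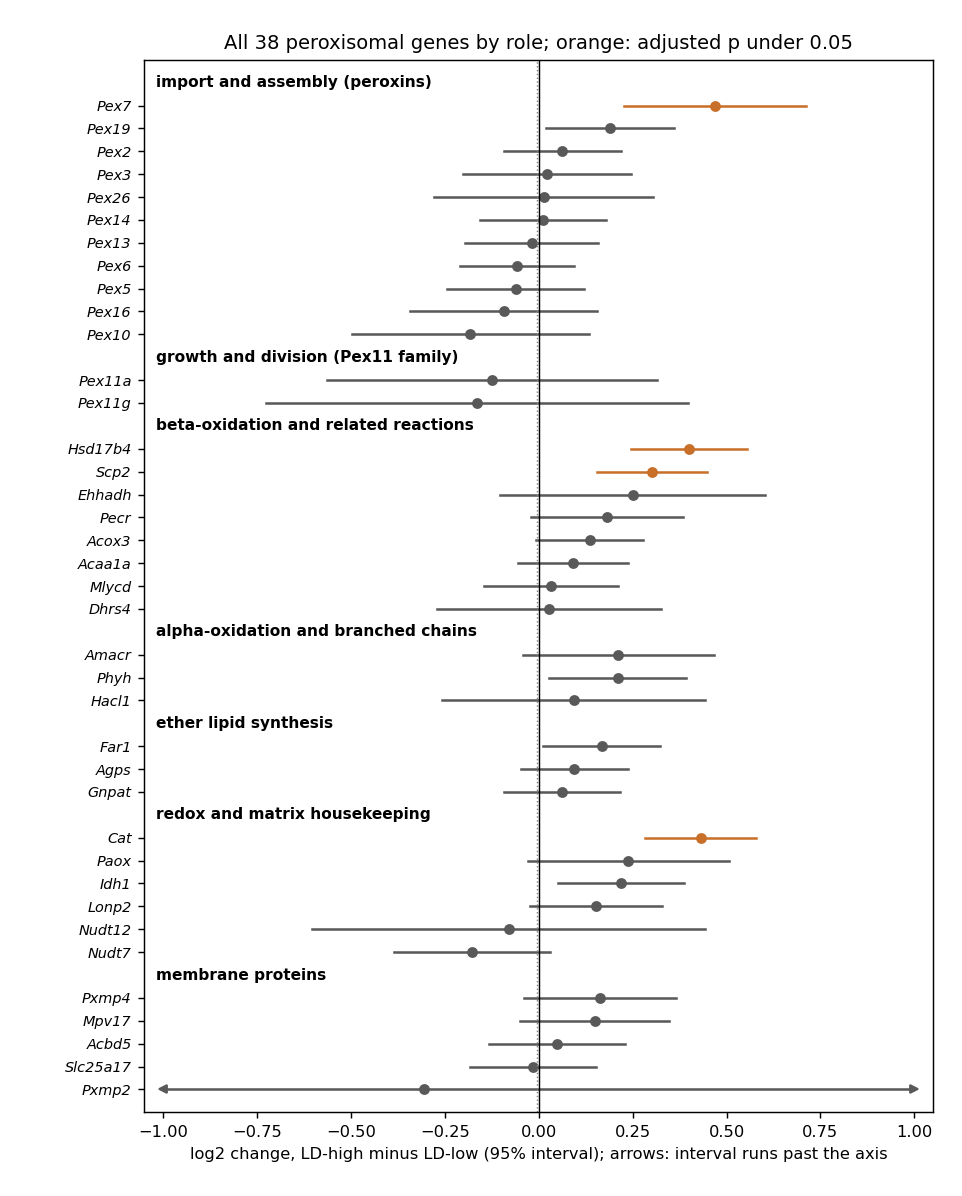
Log2 change (LD-high minus LD-low, horizontal axis) with its 95% interval for all 38 genes, grouped by role; orange marks an adjusted p under 0.05 and the dotted line the median of all genes tested. All 8 points of the beta-oxidation group lie right of 0, and the interval of Pxmp2 runs past the axis.

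All 8 beta-oxidation genes had changes above 0 in the main fit. Mlycd and Dhrs4 turned below 0 with libraries scaled to equal totals and in some fits without 1 library. The beta-oxidation group also holds enzymes of neighbouring reactions (Pecr, Mlycd and Dhrs4). Of its genes 2 rose (Hsd17b4 and Scp2), 6 did not pass, and the median log2 change was 0.16. Acox3, an oxidase for branched chains, had 4981, 4637 and 5033 normalized counts in LD-low against 5124, 5401 and 5569.9 in LD-high libraries. These groups lay close together without overlap, and the log2 change was 0.14 ± 0.07 (SE, limma adjusted p 0.280). Acaa1a, the thiolase that ends each cycle for straight chains, was 2509.9, 2685 and 2536 in LD-low against 2756, 2728 and 2749.9 in LD-high libraries. All LD-high values were higher, by little: the change was 0.09 ± 0.07 (adjusted p 0.486). Acaa1b, a near-identical copy, had 0 to 12 reads in every library. How reads that fit both copies were counted is unknown, so the values of Acaa1a are uncertain to that extent.

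Ehhadh, the other bifunctional enzyme, was low and scattered, from 269 to 365 in LD-low and from 290.5 to 433 in LD-high libraries, with a log2 change of 0.25 ± 0.17. Pecr, which reduces enoyl-CoA, had a change of 0.18 ± 0.09 without overlap between groups, and 11.5% of its exon length overlaps a non-coding gene on the other strand. The malonyl-CoA decarboxylase gene Mlycd and the carbonyl reductase gene Dhrs4 had changes of 0.03 each, with overlap between groups.

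Genes of alpha-oxidation, which removes 1 carbon from chains such as phytanic acid, had changes above 0 but did not pass. The median of the 3 was 0.21. Phyh, which hydroxylates phytanoyl-CoA and is imported by Pex7, had 947, 979 and 1025 normalized counts in LD-low against 1187, 1147 and 1080.2 in LD-high libraries. The groups did not overlap, and the log2 change was 0.21 ± 0.09 (SE, limma adjusted p 0.188). Amacr, a racemase for branched-chain acyl-CoA, had 346, 379 and 336 in LD-low against 421, 392 and 416 in LD-high libraries (0.21 ± 0.12, adjusted p 0.343). Its groups did not overlap either. Hacl1, the lyase that cuts off the carbon, had 254, 268 and 294 in LD-low against 282, 235 and 367 in LD-high libraries, with overlap (0.09 ± 0.16).

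Ether lipid synthesis was represented by 3 genes, all with small changes above 0 and none past the test. Far1, which makes the fatty alcohol, had 2804, 2554 and 2513 normalized counts in LD-low against 3005, 3030.4 and 2798 in LD-high libraries. LD-low replicate 1 overlapped with LD-high replicate 3, and the log2 change was 0.17 ± 0.07 (SE, limma adjusted p 0.220). Gnpat, which adds the first acyl chain, had 2879, 3013 and 2859.9 in LD-low against 3173, 3157 and 2813 in LD-high libraries (0.06 ± 0.07). Agps, which swaps that chain for the alcohol, had 4868, 4552 and 4564 in LD-low against 5054, 5137 and 4742 in LD-high libraries (0.09 ± 0.07). Agps, Phyh and Acaa1a are cargo of Pex7, and none of these 3 passed the test.

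Among 6 genes of redox balance and matrix upkeep, Cat rose and 5 missed the threshold. Their median log2 change was 0.19. Idh1, an NADPH-producing enzyme of cytosol and peroxisomes, had 1730.3, 1643 and 1718 normalized counts in LD-low against 1839.7, 1962 and 2134 in LD-high libraries. Its groups did not overlap, and of the 34 genes that did not pass it had the smallest p (log2 change 0.22 ± 0.08, SE, limma adjusted p 0.140). Paox, a polyamine oxidase that releases hydrogen peroxide, had 385, 312 and 353 in LD-low against 413, 431 and 391 in LD-high libraries (0.24 ± 0.13, adjusted p 0.310). The LD-high values were again all higher. Lonp2, the matrix protease, had a change of 0.15 ± 0.08. Nudt7, which splits coenzyme A, was the 1 gene of the 38 with all LD-high values lower, at 775, 686 and 725 in LD-low against 663, 628 and 639 in LD-high libraries. Its log2 change was -0.18 ± 0.10 (adjusted p 0.331), and Nudt12, which splits NADH, averaged 103 normalized counts in LD-low against 95.3 in LD-high libraries, with a change of -0.08 ± 0.25 that turned above 0 with quantile normalization.

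**Figure D4:**
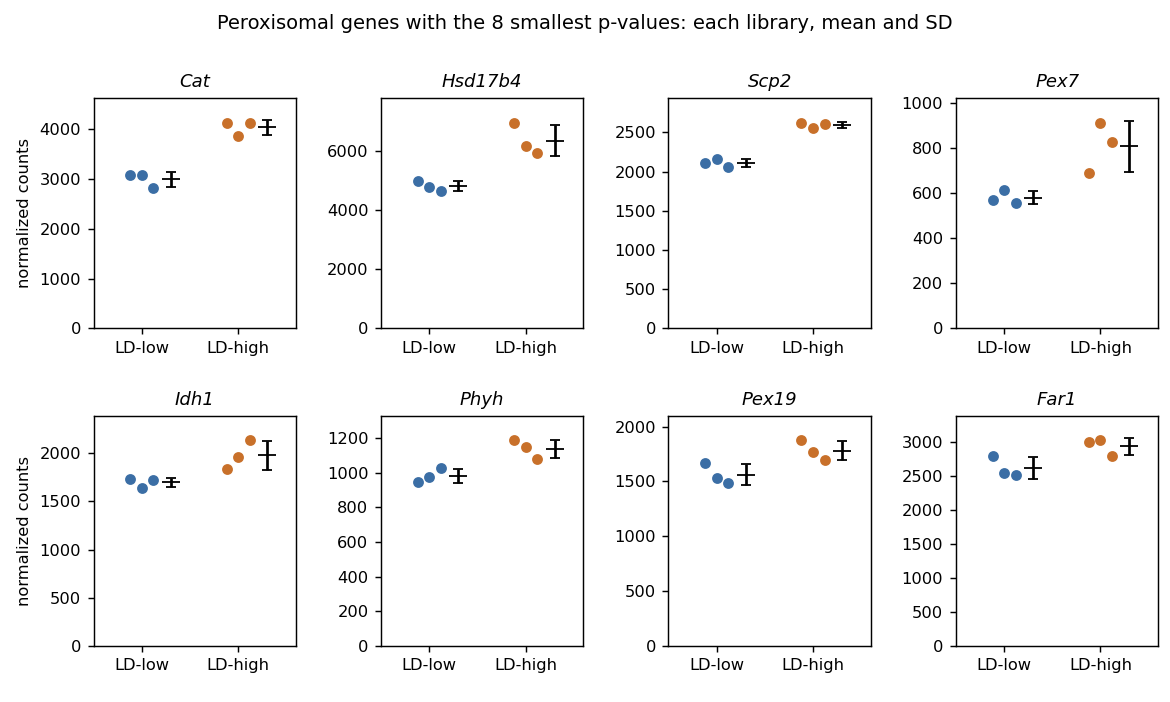
Normalized counts (vertical axes, from 0) of the 8 genes with the smallest p-values in each library (points), with the mean and SD of the 3 libraries of each group (black). In 7 of the 8 panels the groups do not overlap, and Far1 is the exception. The genes were picked by p from these same values, which favours such separation, so it is no added evidence.

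None of the 5 membrane protein genes passed. Pxmp4 had 659.6, 656 and 676 normalized counts in LD-low against 779.8, 746 and 706 in LD-high libraries, without overlap (log2 change 0.16 ± 0.09, SE, limma adjusted p 0.358). Mpv17, whose product is now placed in the inner mitochondrial membrane, had 1496, 1613 and 1539 in LD-low against 1499, 1936 and 1743 in LD-high libraries (0.15 ± 0.09). Acbd5, which binds very long acyl-CoA and tethers peroxisomes to the endoplasmic reticulum, had 1394, 1498 and 1281 in LD-low against 1367, 1456 and 1488 in LD-high libraries (0.05 ± 0.08). Both of the latter overlapped between groups. Slc25a17, a cofactor carrier, had a change of -0.02 with an interval from -0.18 to 0.15. Pxmp2, a channel protein, was barely expressed, from 5.61 to 20.4 normalized counts over the 6 libraries, and its interval ran from -1.65 to 1.04.

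The summed level of the 38 transcripts was 57223, 57085 and 55313 normalized counts in the LD-low and 62763, 62687 and 62493 in the LD-high libraries. The LD-high sums were 10.8% higher on average and did not overlap with the LD-low sums. The sum weighs abundant and long transcripts most, and it was not tested. Totals over all genes were 27007400, 25774300 and 25362000 normalized counts in the LD-low libraries. They were 27479500, 26454000 and 26539800 in the LD-high libraries, higher on average but with overlap. Differences in the sums given here were not corrected for these totals. By role, the sums of the redox and matrix group were 18.7% higher, those of the beta-oxidation group 16.8%, alpha-oxidation 14.5%, ether lipid synthesis 7.52%, membrane proteins 5.25% and peroxins 2.74%, and the sum of the Pex11 pair differed by -8.04%. Enzyme genes thus held most of the difference and peroxin genes little of it, a contrast that was not tested. Much of it lay in genes already called. The mean redox and matrix sum went from 8464 in LD-low to 10043 in LD-high libraries, and Cat alone from 2995 to 4037. The mean beta-oxidation sum went from 17293 to 20191, with Hsd17b4 from 4816 to 6366 and Scp2 from 2104 to 2594.

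**Figure D5:**
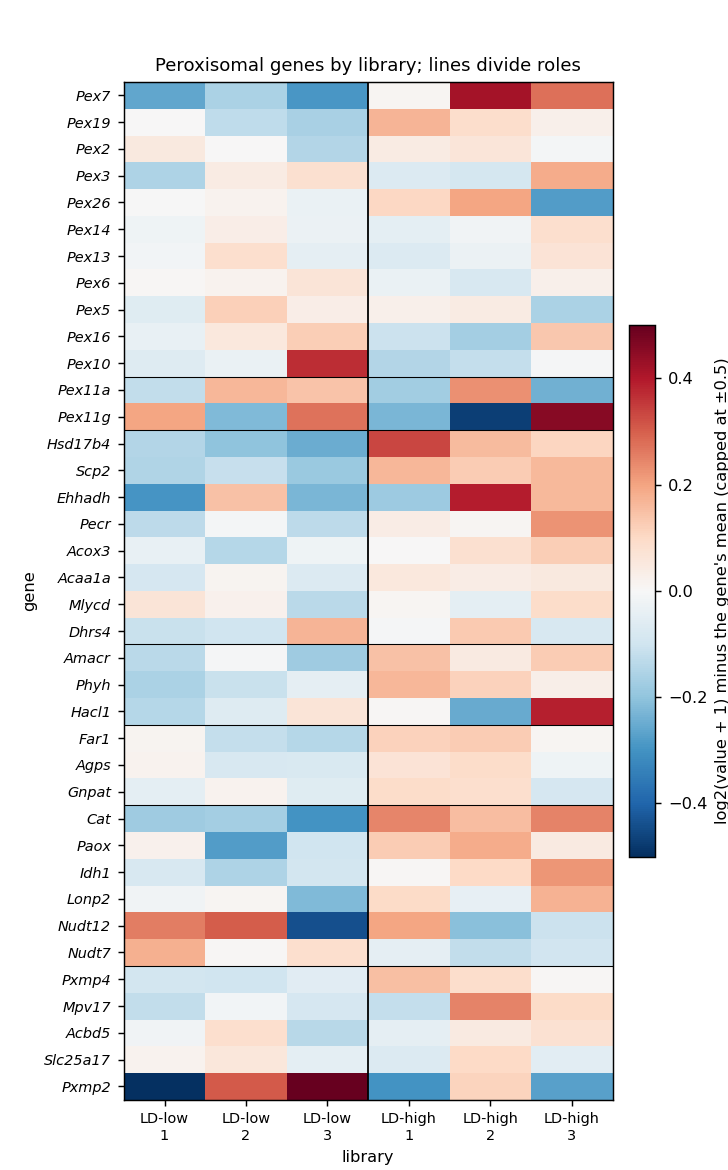
Log2 of the normalized count plus 1 in each library (columns) minus the gene's mean over the 6 libraries (colour, capped at ±0.5) for the 38 genes (rows, divided by role). The rows of Cat, Hsd17b4, Scp2 and Pex7 are blue in the 3 LD-low columns and red or near white in the 3 LD-high columns, while Pex11g and Pxmp2 vary within groups.

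Levels between genes were compared per kilobase of annotated exon. The most abundant of the 38 on that scale was Hsd17b4, at 1642 normalized counts per kilobase over all libraries, followed by Acaa1a (1459), Cat (1346), Pex2 (1269) and Slc25a17 (1041). These 5 lay between percentiles 88.5 and 93.2 of all genes tested that have an annotated length. Pex7 was at 296 and Scp2 at 675. The lowest were Pxmp2 (9.27), Nudt12 (22.5), Pex11g (28.3) and Pex11a (50.5). In LD-low libraries Acaa1a (1413 ± 51.8, SD, n = 3) and Hsd17b4 (1415 ± 50.2) stood at the same level per kilobase, within their spread. In LD-high libraries they were at 1505 ± 8.02 and 1870.2 ± 155. Cat went from 1146 ± 56.8, below Acaa1a, to 1545 ± 55.9, a spread that takes in the mean of Acaa1a.

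The SE of the log2 change lay between 0.07 and 0.09 for the 21 genes that averaged 1000 normalized counts or more and between 0.09 and 0.63 for the 17 below. Of the 34 genes that did not pass, 13 had a 95% interval wholly within ±0.3 and 25 within ±0.4. For those 25 the interval leaves out a change of the size of Cat or Pex7. The other 9 were Pex10, Pex11a, Pex11g, Ehhadh, Amacr, Hacl1, Nudt12, Paox and Pxmp2, whose intervals reach past 0.4 or -0.4. The spread between libraries of a group was small: the median coefficient of variation over the 38 genes was 5.76% for LD-low and 5.88% for LD-high libraries.

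Another 63 genes of peroxisomes and their partners were listed to see whether the rest of the organelle moved. Of these, 51 were in the table and 46 were tested: 3 rose, 0 fell and 43 did not pass, a share of 6.52% higher against 1.53% of all genes. The median log2 change was 0.09, and 31 of the 46 (67.4%) lay above 0, against 48.7% of all genes tested. LD-high values lay wholly above LD-low values for 9 of the 46 (19.6%, against 12.7% of all genes tested). They lay wholly below for 4 of the 46 (8.70%, against 11.7%). The 3 that rose are not peroxisomal enzymes. Mff and Fis1 encode adaptors that recruit the division machinery to peroxisomes and to mitochondria, and Vapa encodes a tether of the endoplasmic reticulum that Acbd5 binds.

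Mff had 2729.6, 2684 and 2755 normalized counts in LD-low against 3269.7, 3494 and 3259 in LD-high libraries (log2 change 0.29 ± 0.07, SE, limma adjusted p 0.0308). Fis1 had 1018, 976 and 914 in LD-low against 1322, 1155 and 1219 in LD-high libraries (0.34 ± 0.09, adjusted p 0.0465). Vapa had 6933, 6638 and 6161 in LD-low against 7866, 7792 and 8009 in LD-high libraries (0.26 ± 0.07, adjusted p 0.0422). None of these 3 overlapped between groups. They were picked by p from these same values, which favours such separation, so it is no added evidence. DESeq2 called all 3, while edgeR called Mff and Vapa but not Fis1 (adjusted p 0.0516). Mff and Vapa kept their calls without LD-low replicate 1 (limma adjusted p 0.0486 and 0.0299). Dropping any other library lost both calls. The adjusted p reached 0.116 for Mff (LD-low replicate 2 dropped) and 0.161 for Vapa (LD-low replicate 3 dropped). Fis1 lost its call whichever library was dropped, with 0.178 at most (LD-low replicate 3).

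None of the next genes by p passed in the main limma fit. Among them were the antioxidant gene Prdx5 (0.27 ± 0.08, SE, limma adjusted p 0.0617), Hsdl2 (0.30 ± 0.10, 0.119) and the phospholipase gene Pnpla8 (0.17 ± 0.07, 0.191). DESeq2 called Prdx5 higher (adjusted p 0.0273) and edgeR did not (0.0660). Limma also called Prdx5 with the replicate number as a block (0.0245) and with corrections for exon length (0.0272) and GC content (0.0229). Usp30, a deubiquitinase of mitochondria and peroxisomes, went the other way (-0.26 ± 0.11, 0.194).

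Of 13 regulators tied to peroxisomal genes, 12 were in the table, 10 were tested and 0 passed in limma, with 1 at an unadjusted p under 0.05. That was Ppard, a nuclear receptor gene, with 236, 200.3 and 248 normalized counts in LD-low against 171, 187 and 172 in LD-high libraries (log2 change -0.36 ± 0.16, SE, limma adjusted p 0.216). The LD-high values were all lower. The partner receptor genes Rxrg and Rxra had changes of 0.36 ± 0.18 and 0.14 ± 0.10 (adjusted p 0.297 and 0.475), with overlap between groups. Ppara, the receptor best known for peroxisomal genes in liver, was at 4.33 normalized counts or less in every library and was not tested.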

How the data were processed

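RNA of 3 LD-low and 3 LD-high samples was made into Smart-seq libraries, which do not mark strand. The submitters' processing notes name FastQC 0.11.4, STAR 2.5.1b, DESeq2 and the build mm9; which annotation, strand setting and gene filter were used is not given in the sources used here. Values in the deposited table are a normalized signal, which the authors made by dividing read counts by size factors (0.599 to 1.43); all deposited values were whole multiples of 1 step per library (100% within 0.01 reads), so reads were recovered.

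Differences were tested with limma 3.58.1 (R 4.3.3) on log2(normalized count + 1), fitting a trend of variance on level, for genes with at least 10 in at least 3 libraries. P-values were 2-sided and adjusted by Benjamini-Hochberg over all genes tested, with a threshold of 0.05. Alternatives were pseudocounts of 0.5 and 5, no filter and a filter of 50, other scalings, no trend, each library left out, the replicate number as a block, edgeR 4.0.16 and DESeq2 1.42.0 on the recovered reads and, added after seeing the data, corrections for exon length and GC content. The procedure was tested on simulated data.

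Exon lengths and positions come from GENCODE vM1 on NCBIM37 (mm9), matched for 13521 of 14148 rows, older symbols included. A count of 0 allows up to 3 reads, which is 2.11 to 5.01 normalized counts depending on the library and covers counting error only. The 22 rows with a date in place of a symbol were left in. All 38 genes are named, by role. Values by library are given for those past the threshold and otherwise for the 3 per role with the smallest p; of the other peroxisomal genes and the regulators, those past the threshold and the next 5 and 3 by p are named, except 1 that is not reported here. Members, lists and tests were chosen with earlier results of these data known.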

Additional observations from a re-analysis of the deposited data

How the results depend on the processing

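The 4 genes that rose, of the 38, were called under each other pseudocount, filter, TMM scaling, edgeR, DESeq2, and the length and GC corrections; none of the 38 fell under any setting. There were 3 with quantile normalization, 2 with equal totals, 0 without the trend, and 1 to 3 in fits without 1 library. Over all genes the count of 390 became 252 with quantile normalization, 15 without the trend and 715 with DESeq2. It became 607 with the length correction and 601 with the GC correction, and ran from 52 to 421 without 1 library. With these corrections 428 and 416 of 11254 genes were higher, against 178 of 11624 in the main fit. Of the calls, 45.6% were higher, against 33.6% with equal totals, 6.67% without the trend, 70.5% with the length and 69.2% with the GC correction; without 1 library the share ran from 25.6% to 50.4%. The median of the 38 (0.077) was 0.034 with equal totals, 0.118 with the length and 0.113 with the GC correction. The median over all genes tested (-0.006) moved the same way, to -0.048 with equal totals, 0.039 with the length and 0.043 with the GC correction. For the other peroxisomal genes, 3 higher became 0 with quantile normalization, equal totals and no trend, 5 with the GC correction and 0 to 2 without 1 library; their median (0.086) was 0.043 with equal totals, 0.115 and 0.134 with the corrections and 0.058 to 0.087 without 1 library. Fits without 1 library hold fewer samples; otherwise the cause was not tested.

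Signs turned only in genes that did not pass. With equal totals Pex3 was -0.021, Pex14 -0.032, Pex26 -0.029, Mlycd -0.010 and Dhrs4 -0.016. With quantile normalization Pex14 was -0.011, Pex11a 0.011, Nudt12 0.065 and Pxmp2 0.014. With the length correction Pex13 was 0.015 and Slc25a17 0.039, and with the GC correction Pex6 was 0.027, Pex13 0.024 and Slc25a17 0.011. Without 1 library the change of Pex3 ran from -0.067 to 0.071, Pex5 from -0.107 to 0.0025, Pex13 from -0.057 to 0.020, Pex14 from -0.027 to 0.038, Pex26 from -0.082 to 0.157, Pex11g from -0.433 to 0.030, Mlycd from -0.027 to 0.073, Dhrs4 from -0.031 to 0.118, Hacl1 from -0.077 to 0.243, Nudt12 from -0.320 to 0.050, Pxmp2 from -0.770 to 0.079, Acbd5 from -0.0095 to 0.103 and Slc25a17 from -0.069 to 0.015.

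The replicate numbers link LD-low and LD-high titles, but same-numbered libraries deviated together only weakly (Pearson's r across genes 0.161, 0.132 and 0.0641), each correlating best with its own number, a hint from the data and not the design. With the replicate number as a block 1090 of 11624 genes passed, 560 of them higher, against 178 higher in the main fit. Among these were 4 of the 38 and 5 of the other peroxisomal genes, all higher.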
